A study of Mus musculus with 16 samples.

Results

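The circadian clock genes described here are *Arntl*, *Npas2*, *Per1*, *Per2*, *Per3*, *Cry2*, *Nr1d1*, *Nr1d2*, *Dbp* and *Ciart*, the 10 rows of a table of 55471 genes whose identifiers map to these mouse symbols. They were followed in skeletal muscle mRNA of 16 male mice, and all 10 passed the filter on low counts that left 14331 genes for testing. All mice were of the B6.129-Npr1tm1Gar/J line after 10 or more generations of backcrossing to C57BL/6J, began at 12 weeks of age, and ate a high-fat diet (HFD) with 60% of its kcal from lipids over 12 weeks under alternating 12 h of light and dark at 21°C. Libraries from 10 mice are labelled *Npr1*+/- (heterozygous replicates 1 to 10) and 6 from littermate controls are labelled *Npr1*+/+ (wildtype replicates 1 to 6). *Npr1* encodes the natriuretic peptide receptor GCA, and the heterozygous loss is germline, so it is present in all tissues of the mouse. The labels spread the mice over 4 cages. Cage 675 held 2 heterozygous and 2 wildtype mice, cage 676 held 3 and 1, cage 677 held 1 and 2, and cage 678 held 4 and 1. Which muscle was taken and the hour at which it was taken are not given in the sources used here.

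The circadian clock is a transcriptional feedback loop present in nearly every cell. ARNTL (BMAL1) pairs with CLOCK or its relative NPAS2 and activates genes that carry E-boxes, among them *Per*, *Cry*, *Nr1d1*, *Nr1d2*, *Dbp* and *Ciart*. PER, CRY and CIART proteins then repress that pair, while the nuclear receptors REV-ERBα (*Nr1d1*) and REV-ERBβ (*Nr1d2*) repress *Arntl*, and DBP drives output genes through D-boxes. In muscle these transcripts cycle over the day, *Arntl* roughly opposite to *Nr1d1* and *Dbp*, and feeding, glucocorticoids and contraction can shift them.

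Library totals ranged from 15273472 to 29630298 counts in 15 mice and reached 59682677 in heterozygous replicate 5. In these libraries the targeted gene did not separate the labels. *Npr1* had 9.83 to 22.2 CPM (a count rate that puts libraries on 1 scale, here with TMM; median 12) under the *Npr1*+/- label and 10.4 to 13.4 CPM (median 12.4) under the *Npr1*+/+ label. The fitted log2 difference was 0.09 (adjusted p = 1 from edgeR). Genotype is therefore given as labelled throughout. Muscle fibre markers summed to 72900 to 138000 CPM in the 16 libraries of this tissue, with none of the 7 markers at 0, and the B cell markers *Cd79b* and *Ms4a1* reached at most 21 counts. Counts of genes called for cage and for body weight rose many times when heterozygous replicate 3 of cage 675 was left out. This mouse, at 40.1 g, was the lightest of its cage (the others weighed 46.2 to 54 g) and had the highest leverage in the model, 0.535, as did wildtype replicate 4. The cage and body weight results of the clock genes and of the other gene lists are given with and without it.

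To show where the proteins of the loop could meet these genes, 250 bases before the start sites (RefSeq, GRCm38.p6) were searched on both strands for the E-box CACGTG, the related CACGTT, the D-boxes TTATGTAA and TTACGTAA, and the REV-ERB/ROR cores TAGGTCA and TGGGTCA. Windows were found for 9 of the 10 genes, with none for *Per2*. Of 32851 promoter windows of this length, 6.02% held CACGTG, 3.85% CACGTT, 0.819% TTATGTAA, 0.113% TTACGTAA, 2.23% TAGGTCA and 3.24% TGGGTCA. The stretches of the members with a match are printed in the direction of the gene, with the matched letters in capitals. None of them covers an annotated exon. The *Per1* stretch lies inside the *Per1* gene, before a start site downstream of the first one, and the others lie upstream of their genes.
*Per1*, chr11:69098759-69098812, plus strand, 1 E-box: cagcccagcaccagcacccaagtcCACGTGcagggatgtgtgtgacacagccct
*Ciart*, chr3:95882315-95882368, minus strand, 1 E-box: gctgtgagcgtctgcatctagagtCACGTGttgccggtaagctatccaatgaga
*Ciart*, chr3:95882257-95882310, minus strand, 2 E-boxes: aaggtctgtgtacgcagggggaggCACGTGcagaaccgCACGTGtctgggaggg
*Cry2*, chr2:92434206-92434259, minus strand, CACGTT on the other strand: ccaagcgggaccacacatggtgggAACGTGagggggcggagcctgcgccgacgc
*Nr1d1*, chr11:98775378-98775429, minus strand, CACGTT on the other strand: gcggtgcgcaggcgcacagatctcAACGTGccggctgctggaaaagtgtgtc
*Per3*, chr4:151044839-151044894, minus strand, 1 D-box: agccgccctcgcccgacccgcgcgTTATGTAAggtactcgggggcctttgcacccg
*Per3*, chr4:151044792-151044847, minus strand, 1 D-box: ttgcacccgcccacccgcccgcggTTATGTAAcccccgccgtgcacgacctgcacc
*Arntl*, *Npas2*, *Nr1d2* and *Dbp* had no match in their windows, which says only that these letters are absent from these bases. A match is a description of the sequence, and no binding was measured.

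Per kilobase of gene length, the REV-ERB genes led and *Npas2* came last. *Nr1d2* had 37.7 ± 5.56 CPM per kb and *Nr1d1* 28.8 ± 17.6 (SD, n = 16 for each gene). *Dbp* followed with 11.9 ± 5.89 CPM per kb, *Per1* with 5.36 ± 4.12, *Cry2* with 3.09 ± 1.39 and *Arntl* with 3.01 ± 0.775. The lower end held *Per3* with 2.01 ± 0.858 CPM per kb, *Ciart* with 1.59 ± 0.845, *Per2* with 1.17 ± 0.392 and *Npas2* with 0.217 ± 0.101. The ranges of neighbours in this order overlapped, including those of *Nr1d2* (25.7 to 46.4 CPM per kb) and *Nr1d1* (10.3 to 80.4), except that every value of *Npas2* (0.0802 to 0.373) lay below every value of *Per2* (0.785 to 2.18). *Npas2* rested on 6 to 86 counts per library and *Ciart* on 29 to 145, against at least 69 for every other member, so the values of these genes carry the most counting error.

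**Figure D1:**
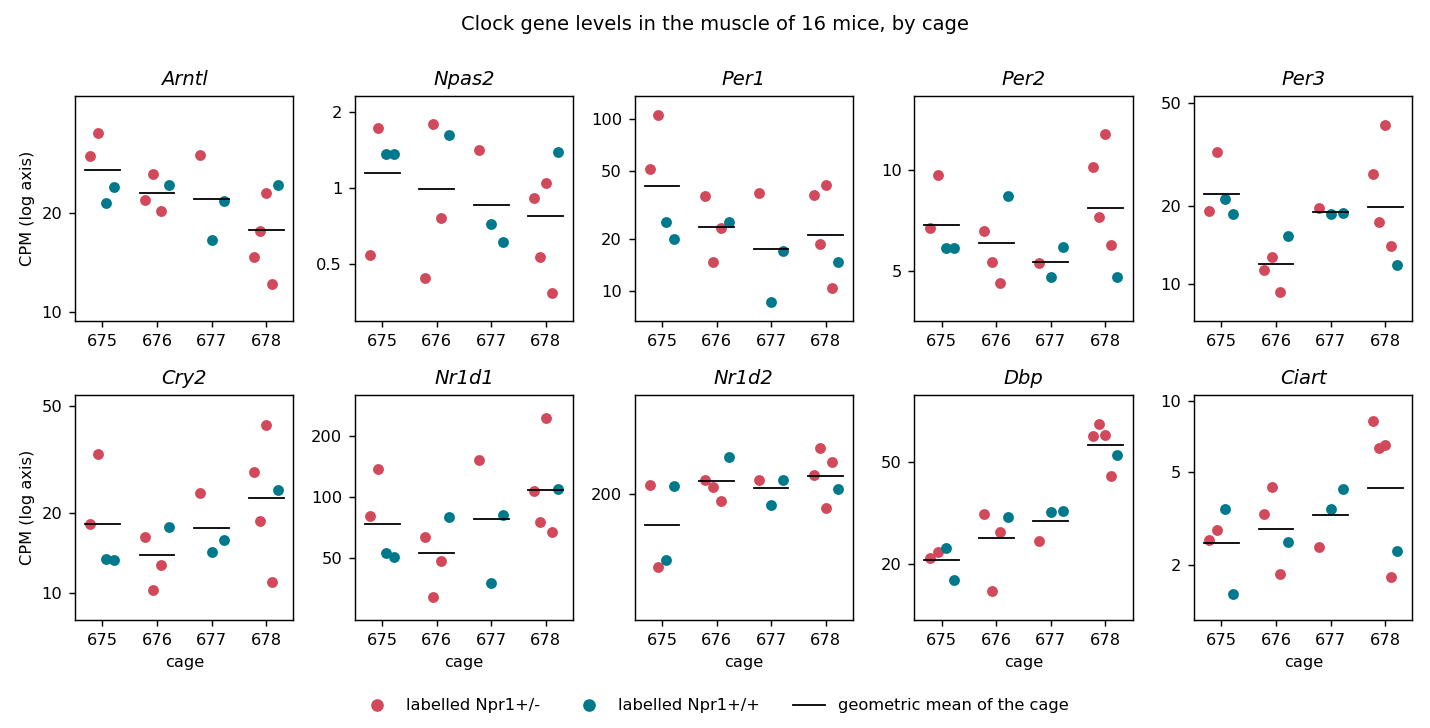
Levels of the 10 clock genes in CPM (log axis, 1 panel a gene with its own range) for each of the 16 mice, by cage (675, 676, 677 and 678), coloured by genotype label, with the geometric mean of each cage as a line. *Dbp* in cage 678 (44.1 to 70.1 CPM) lies above every mouse of the other cages (15.6 to 32 CPM), while *Per1* and *Nr1d1* spread widely inside each cage.

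The activators came first. *Arntl*, on chromosome 7 from 113207465 to 113314126 (plus strand), had 21.4, 24, 29.6 and 34.8 CPM in the mice of cage 675, 20.3, 21.8, 24.2 and 26.2 CPM in cage 676, 16.5, 21.7 and 29.9 CPM in cage 677, and 12.2, 14.7, 17.6, 22.9 and 24.2 CPM in cage 678. The lowest values were in cage 678, with cages overlapping, and the highest mouse was 2.85-fold above the lowest. *Npas2*, on chromosome 1 from 39193731 to 39363236 (plus strand), had 0.539 to 1.73 CPM in cage 675, 0.439 to 1.79 in cage 676, 0.611 to 1.41 in cage 677 and 0.384 to 1.39 in cage 678, so that every cage covered most of the same range.

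Of the period genes, *Per1* differed most from mouse to mouse. *Per1*, an E-box target that also answers quickly to glucocorticoids and cAMP, lies on chromosome 11 from 69095217 to 69109960 (plus strand) and had 20, 25.2, 50.8 and 105 CPM in cage 675, 14.6, 23.1, 25.2 and 35.5 CPM in cage 676, 8.63, 16.9 and 37 CPM in cage 677, and 10.3, 14.7, 18.7, 36.1 and 41.2 CPM in cage 678. Heterozygous replicate 6 held the top value, 12.1-fold above the lowest, wildtype replicate 1. *Per2*, on chromosome 1 from 91415982 to 91459324 (minus strand), had 5.84, 5.86, 6.71 and 9.65 CPM in cage 675, 4.6, 5.3, 6.58 and 8.38 CPM in cage 676, 4.8, 5.29 and 5.9 CPM in cage 677, and 4.8, 5.96, 7.24, 10.2 and 12.8 CPM in cage 678. *Per3*, on chromosome 4 from 151003652 to 151044665 (minus strand), had 18.6, 19.2, 21.4 and 32.3 CPM in cage 675, 9.32, 11.3, 12.7 and 15.3 CPM in cage 676, 18.7, 18.8 and 19.7 CPM in cage 677, and 11.8, 14, 17.3, 26.7 and 41.2 CPM in cage 678. In both *Per2* and *Per3* the top mouse was heterozygous replicate 7.

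Of the other repressors, *Cry2*, on chromosome 2 from 92403646 to 92434043 (minus strand), had 13.3, 13.4, 18.1 and 33.2 CPM in cage 675, 10.3, 12.7, 16.2 and 17.7 CPM in cage 676, 14.3, 15.8 and 23.6 CPM in cage 677, and 11, 18.6, 24.2, 28.4 and 42.3 CPM in cage 678. *Ciart* (CHRONO), on chromosome 3 from 95878503 to 95882251 (minus strand), had 1.51, 2.55, 2.81 and 3.47 CPM in cage 675, 1.83, 2.51, 3.29 and 4.28 CPM in cage 676, 2.38, 3.46 and 4.23 CPM in cage 677, and 1.78, 2.3, 6.31, 6.51 and 8.18 CPM in cage 678. Both genes had their top values in cage 678, whose ranges overlapped those of the other cages.

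The REV-ERB genes, both repressors of *Arntl*, behaved unlike each other. *Nr1d1*, on chromosome 11 from 98767932 to 98775333 (minus strand), had 50.2, 52.5, 80.4 and 137 CPM in cage 675, 31.8, 48.1, 63.6 and 79.5 CPM in cage 676, 37.6, 81.6 and 152 CPM in cage 677, and 67, 75.2, 107, 109 and 247 CPM in cage 678, a 7.77-fold range. *Nr1d2*, on chromosome 14 from 18204054 to 18239127 (minus strand), had 139, 144, 208 and 209 CPM in cage 675, 193, 207, 214 and 240 CPM in cage 676, 189, 214 and 214 CPM in cage 677, and 186, 205, 219, 234 and 251 CPM in cage 678, a 1.81-fold range. The 3 mice highest in *Nr1d1* were heterozygous replicates 7, 5 and 6, and the last of these was the lowest of all 16 in *Nr1d2*.

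The output gene *Dbp*, whose protein is a PAR bZIP activator of D-box genes, lies on chromosome 7 from 45705088 to 45710114 (plus strand). It had 17.2, 21.1, 22.1 and 22.9 CPM in cage 675, 15.6, 26.6, 30.5 and 31.1 CPM in cage 676, 24.5, 31.7 and 32 CPM in cage 677, and 44.1, 53.2, 62.9, 63.4 and 70.1 CPM in cage 678. All 5 mice of cage 678, the single wildtype mouse included, were above all 11 mice of the other cages. *Dbp* was the only 1 of the 10 members with cage 678 above every other mouse, against 0.0349% of all genes tested, and 0 of 10 had it below every other mouse, against 0.0488%. This separation was noticed in the data and is a description.

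Counts of 2 members could hold fragments of a neighbour if the counting ignored strand, and its strand setting is not given in the sources used here. *Nr1d1* shares 263 exon bases with *Thra* on the other strand, and *Dbp* shares 539 with *Sphk2*. *Thra* ranged from 84.4 to 125 CPM and *Sphk2* from 12.6 to 23.7 CPM, and between cages 678 and 675 they had log2 fold changes of 0.05 (standard error 0.17) and -0.40 (standard error 0.21). Their adjusted p-values were 0.888 and 0.342 (edgeR's quasi-likelihood test, Benjamini-Hochberg). *Cry2* shares 295 exon bases with *D930015M05Rik*, which held 69 counts over all mice against 7403 for *Cry2*.

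As a group the 10 members varied more than most muscle genes, and other clock pathway genes were not part of this comparison. Over the 16 mice the median SD of their log2 CPM was 0.63 against 0.38 for all genes tested, and 9 of the 10 were above that overall median. Within cages the median SD was 0.53 against 0.38, and the SD of the 4 cage means was 0.31 against 0.17. The spread inside cages also enters the SD of cage means, so the last 2 values are not a measure of cage alone. *Per1* had the largest SD over mice, 0.91, with 374 of the 14331 genes higher, followed by *Nr1d1* with 0.77. *Nr1d2* had the smallest, 0.23, below that of most genes. Within cages the SDs of *Arntl* (0.34), *Dbp* (0.31) and *Nr1d2* (0.20) lay below the overall median of 0.38.

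Of the 10 members, *Dbp* had the largest share of its variance between cages. Means of few mice differ without any effect of cage, so a share above 0 is no sign of one. The shares are therefore to be read against the median of all genes tested, 17.9%. Between-cage differences held 83.9% (jackknife standard error 9.07) of the variance of *Dbp*, and 6 of the 14331 genes had a higher share. Its SD within cages was 0.31 and the SD of its cage means 0.65. For *Per1* the share was 24.4% (standard error 22.6), with an SD of 0.88 within cages, and for *Nr1d1* it was 26.7% (standard error 19.6), with an SD of 0.74. Shares were 40.1% for *Per3*, 38% for *Nr1d2*, 37% for *Arntl*, 22.4% for *Per2*, 21.9% for *Cry2*, 20.4% for *Ciart* and 9.95% for *Npas2*, each with a standard error of 19.3 to 26.7. The median share over the 10 genes was 25.5% against 17.9% for all genes tested. The standard errors are those of single genes, none was computed for the median, and this gap was not tested. In residuals after genotype label and body weight *Dbp* stood less far from the others, at 57.9%, with *Arntl* at 44.2%, *Per1* at 41.9%, *Per3* at 37.8%, *Nr1d2* at 31.7%, *Per2* at 18.1%, *Nr1d1* at 16.1%, *Cry2* at 13.5%, *Ciart* at 8.67% and *Npas2* at 6.32%. With scaling by library size only, the share of *Nr1d2* was 17.4% and that of *Dbp* 82%.

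**Figure D2:**
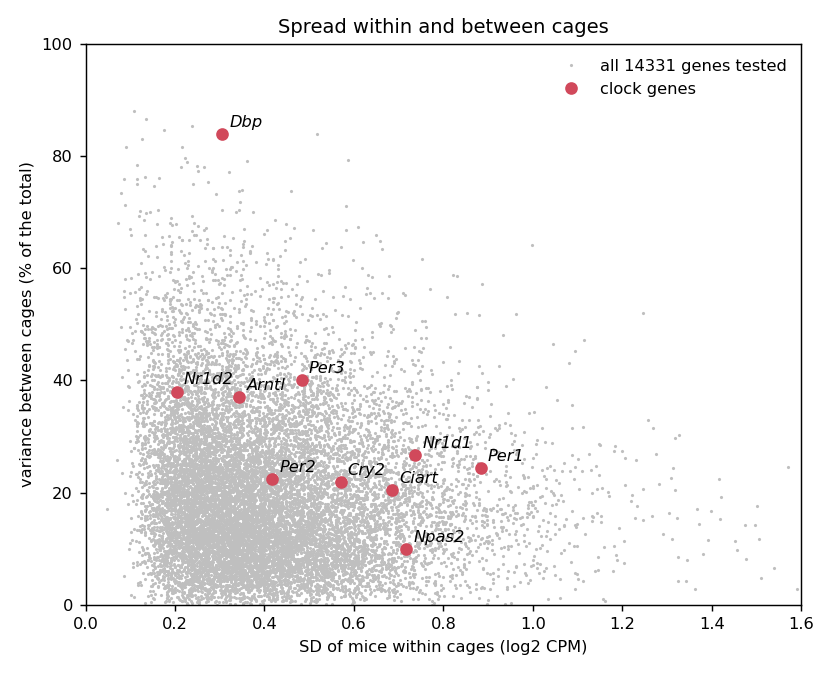
Share of each gene's variance that lies between cages (percent, vertical) against the SD of mice within cages (log2 CPM, horizontal), with the 14331 tested genes in grey (20 lie beyond the right edge at 1.6) and the clock genes in red. *Dbp* sits near the top, at 83.9%, with a small SD within cages (0.31), whereas *Per1* (0.88) and *Nr1d1* (0.74) sit far to the right with shares of 24.4% and 26.7%.

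The genotype comparison, fitted here with the covariates that the study names, cage and body weight, called none of the clock genes. The study's own result for these genes is not given here. In edgeR's quasi-likelihood test 0 of the 10 had an adjusted p-value under 0.05, against 0% of all genes tested, and 0 of 10 had an unadjusted p-value under 0.05, against 1.05%. *Per1* came closest. It ranged from 10.3 to 105 CPM with a median of 35.8 in the libraries labelled *Npr1*+/- and from 8.63 to 25.2 CPM with a median of 18.4 in those labelled *Npr1*+/+, and the ranges overlapped. Its log2 fold change was 0.66 (standard error 0.35, unadjusted p = 0.0814, adjusted p = 1 in edgeR). At the other end *Npas2* had a log2 fold change of -0.35 (standard error 0.43), with a median of 0.833 CPM in the libraries labelled *Npr1*+/- and 1.37 in those labelled *Npr1*+/+. Leaving out single mice moved the log2 fold change of *Per1* between 0.379 and 1.03 and that of *Npas2* between -0.61 and -0.06, with an adjusted p of 1 each time. With no other covariate in the fit, *Per1* had a log2 fold change of 1.01 and an unadjusted p of 0.0191, and an adjusted p of 0.999.

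The cage comparison asked whether mice housed together shared levels of these genes beyond genotype label and weight. In the joint test of the 4 cages, 0 of 10 members had an adjusted p-value under 0.05 in edgeR, against 0.0279% of all genes tested, and 3 of 10 had an unadjusted one, against 7.36%. These were *Dbp* (unadjusted p = 6.99e-05, adjusted p = 0.1, the tenth smallest p-value of all genes), *Per1* (p = 0.00541, adjusted p = 0.656) and *Arntl* (p = 0.00742, adjusted p = 0.656). *Dbp* passed with DESeq2 (adjusted p = 4.69e-06). Without heterozygous replicate 3 both *Dbp* (adjusted p = 0.0225) and *Per1* (adjusted p = 0.0257) passed in edgeR, but so did 6.08% of all genes.

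Between single cages, *Dbp* was higher in cage 678 than in cage 675 by 1.48 on the log2 scale (standard error 0.24, adjusted p = 0.028 in edgeR with Benjamini-Hochberg adjustment), and 1 of 10 members passed against 0.0907% of all genes tested. The mean was 58.7 ± 10.1 CPM (SD, n = 5) in cage 678 and 20.8 ± 2.53 CPM (SD, n = 4) in cage 675. Against cage 676 the log2 difference of *Dbp* was 1.13 (standard error 0.24, adjusted p = 0.228 in edgeR), and against cage 677 it was 1.04 (standard error 0.25, adjusted p = 0.999). No member passed in the other 5 pairs, where 0% of all genes were called for 676 against 675, 0% for 677 against 675, 0.00698% for 677 against 676, 0.014% for 678 against 676 and 0% for 678 against 677. The *Dbp* call was lost on leaving out any 1 of wildtype replicates 1, 2 or 6 or heterozygous replicates 2, 4, 5 or 6 (adjusted p up to 0.191), with a log2 fold change between 1.32 and 1.57 in all 16 such fits.

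*Per1* and *Arntl* came next in that pair, both with lower estimates in cage 678. *Per1* differed by -1.77 on the log2 scale (standard error 0.45, adjusted p = 0.223) and *Arntl* by -0.94 (standard error 0.23, adjusted p = 0.192). With no other covariate these were -1.05 (unadjusted p = 0.0545) and -0.58 (unadjusted p = 0.0177), each with an adjusted p of 0.999 in edgeR. The estimates for *Nr1d1* (-0.36, standard error 0.40) and *Nr1d2* (0.35, standard error 0.19) did not pass either. The direction for *Nr1d1* depended on the covariates. Its mean was higher in cage 678, at 121 ± 73 CPM (SD, n = 5) against 80.1 ± 40.5 CPM (SD, n = 4) in cage 675, and with no other covariate in the fit of all mice its log2 difference was 0.595 (unadjusted p = 0.193, adjusted p = 0.999 in edgeR). Without heterozygous replicate 3, and corrected for genotype label and body weight, the pair called 5 of 10 members in edgeR, *Per1* at -2.38 (adjusted p = 0.00893), *Arntl* at -1.21 (adjusted p = 0.0112), *Nr1d1* at -1.05 (adjusted p = 0.0441), *Nr1d2* at 0.69 (adjusted p = 0.0388) and *Dbp* at 1.48 (adjusted p = 0.00991). In that fit 24.9% of all genes were called, 1605 higher and 1948 lower.

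**Figure D3:**
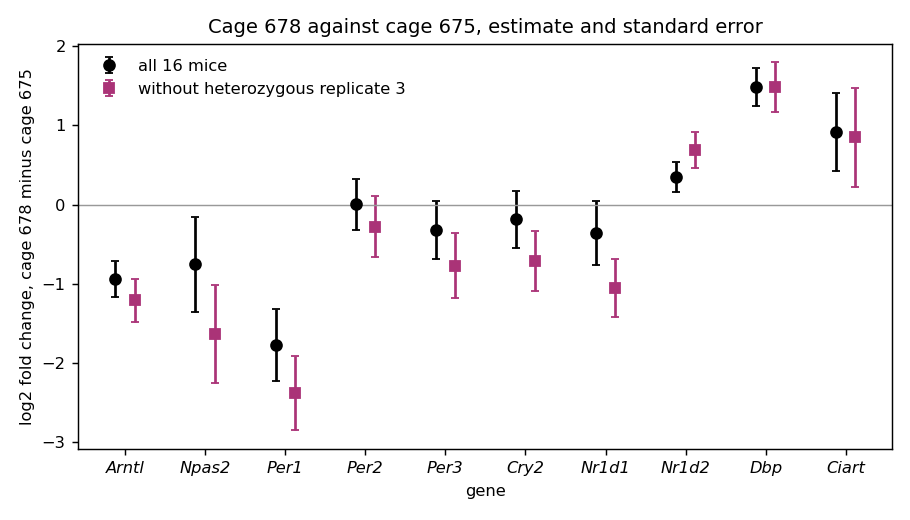
Log2 fold change of each clock gene, cage 678 minus cage 675 (points, with standard errors as bars), corrected for genotype label and body weight, from all 16 mice (black) and without heterozygous replicate 3 (purple). *Dbp* stays at 1.48 in both fits, while *Per1* moves from -1.77 to -2.38 and *Nr1d1* from -0.36 to -1.05, against 0.595 for *Nr1d1* with no other covariate.

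Body weight ran from 36.5 to 54 g, and from 36.5 to 45 g in cage 678, 40.1 to 54 g in cage 675, 45.3 to 48.1 g in cage 676 and 39.4 to 48.1 g in cage 677. With all mice 0 of 10 members passed, against 0% of all genes tested, and 4 of 10 had an unadjusted p-value under 0.05, against 17.1%. All 4 had lower estimates in heavier mice. The slope was -0.15 log2 units per gram for *Nr1d1* (standard error 0.04, adjusted p = 0.245 in edgeR), -0.11 for *Per1* (standard error 0.05, adjusted p = 0.276), -0.09 for *Cry2* (standard error 0.04, adjusted p = 0.262) and -0.06 for *Arntl* (standard error 0.02, adjusted p = 0.245). With no other covariate the slopes of *Arntl* and *Per1* were smaller, -0.00995 (unadjusted p = 0.636) and -0.0509 (p = 0.313), while those of *Nr1d1* and *Cry2* were -0.129 (p = 6.2e-05) and -0.0836 (p = 0.00245), with adjusted p-values from 0.22 to 0.821 in edgeR. The slope of *Dbp* was -0.01 (standard error 0.03, unadjusted p = 0.672, adjusted p = 0.832) in the fit with cage and genotype label, and -0.0892 (p = 0.013, adjusted p = 0.258) with no other covariate. Without heterozygous replicate 3 the same 4 genes passed, all lower in heavier mice, *Nr1d1* at -0.21 (adjusted p = 0.00429), *Cry2* at -0.13 (adjusted p = 0.0222), *Per1* at -0.16 (adjusted p = 0.0253) and *Arntl* at -0.09 (adjusted p = 0.0294). Of all genes tested, 22.1% passed in that fit, and 13.7% passed with lower levels in heavier mice.

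Within cages, levels of *Per1*, *Cry2* and *Nr1d1* varied together, as did those of *Per2* and *Per3*. After removing cage means, 6 of the 45 pairs of members passed a permutation test with mice shuffled inside cages (100000 resamples, two-sided, Benjamini-Hochberg over 45 pairs), and all 6 were positive. The share of passing pairs among all genes was not computed, so this count does not set the clock genes apart from other genes. By rho 7 pairs passed, the additional one being *Per2* with *Cry2* (rho = 0.721, permutation p = 0.00687, adjusted to 0.0442, and r = 0.734, p = 0.00986, adjusted to 0.0529, r = 0.821 without 2 mice). *Cry2* and *Nr1d1* had r = 0.887 and rho = 0.906 (p = 3e-05 and 6e-05, each adjusted to 0.00135), and r = 0.885 without the 2 mice farthest from the median. *Per1* followed *Cry2* with r = 0.887 and rho = 0.921 (p = 9e-05 and 3e-05, adjusted to 0.00202 and 0.00135; r = 0.849 without 2 mice). *Per1* followed *Nr1d1* with r = 0.882 and rho = 0.879 (permutation p = 2e-04 and 0.00024, adjusted to 0.00247 and 0.0036, r = 0.831 without 2 mice). The other repressor genes, *Nr1d2* and *Ciart*, were in none of the 6 pairs, and *Nr1d2* had r between -0.36 and -0.14 with *Per1*, *Per2*, *Per3*, *Cry2*, *Nr1d1* and *Ciart*.

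Each of the other pairs held the period gene *Per2*. *Per2* and *Per3* had r = 0.932 and rho = 0.85 (permutation p = 0.00022 and 0.00199, adjusted to 0.00247 and 0.019), and r = 0.881 without 2 mice. *Per1* and *Per2* had r = 0.72 and rho = 0.741 (p = 0.00232 and 0.00211, adjusted to 0.0209 and 0.019; r = 0.741 without 2 mice). *Per2* and *Nr1d1* had r = 0.67 and rho = 0.682 (p = 0.00494 and 0.00559, adjusted to 0.037 and 0.0419; r = 0.684 without 2 mice). Leaving out single mice left the other 4 pairs past the threshold each time, while *Per1* with *Per2* failed in 5 of the 16 fits and *Per2* with *Nr1d1* in 9. The last pair also missed it with scaling by library size only (permutation p adjusted to 0.0516) and with DESeq2 size factors (0.0559). The number of pairs that passed ran from 4 to 13, with 13 without heterozygous replicate 8 or wildtype replicate 4 and 4 without wildtype replicate 2 or 3 or heterozygous replicate 4, 6 or 7.

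**Figure D4:**
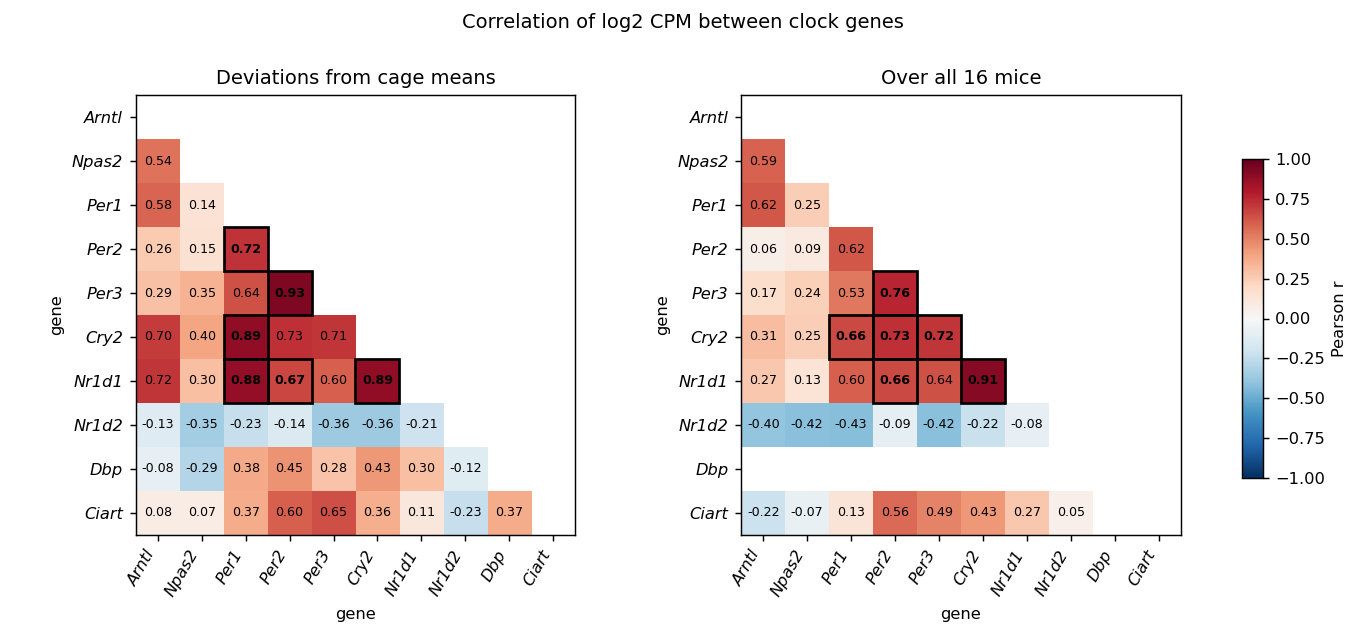
Pearson r between the log2 CPM of each pair of clock genes, as deviations from cage means (left) and over all 16 mice (right, without *Dbp*), in colour and in numbers, with a box and bold type where the permutation test passed after adjustment over 45 pairs. *Cry2* and *Nr1d1* have the highest value over all mice, 0.911. Within cages they have 0.887, and *Per2* with *Per3* is higher at 0.932.

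**Figure D5:**
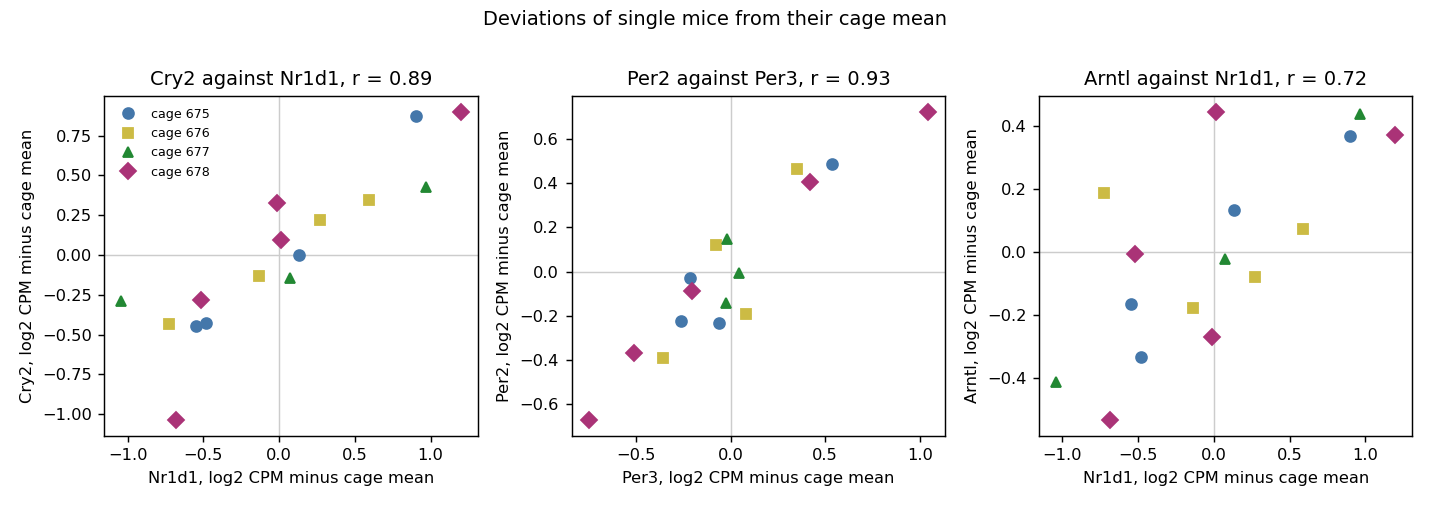
Deviations of single mice from their cage mean (log2 CPM on both axes, shape and colour by cage) for *Cry2* against *Nr1d1* (r = 0.887), *Per2* against *Per3* (r = 0.932) and *Arntl* against *Nr1d1* (r = 0.716). In the first 2 panels mice of all 4 cages lie along a rising line, and in the third they scatter more widely.

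*Arntl* and its repressor gene *Nr1d1* were not opposed inside cages. Their r was 0.716 and rho 0.638 (permutation p = 0.0106 and 0.025, adjusted to 0.0529 and 0.118; r = 0.759 without 2 mice), which missed the threshold. *Arntl* and *Dbp* had r = -0.08 and rho = -0.14 within cages (permutation p = 0.746 and 0.618, adjusted to 0.781 and 0.768, r = -0.28 without 2 mice). *Nr1d1* and *Dbp* had r = 0.303 and rho = 0.321 (permutation p = 0.261 and 0.267, adjusted to 0.452 and 0.504, r = 0.377 without 2 mice). No pair with *Dbp*, *Ciart*, *Nr1d2* or *Npas2* passed within cages.

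Over all 16 mice, without regard to cage, 6 pairs also passed, all positive, again with no share among pairs of all genes to set beside them. *Cry2* and *Nr1d1* led with r = 0.911 and rho = 0.876 (p = 1e-05, the smallest that 100000 permutations can give, and 5e-05, adjusted to 0.00045 and 0.00225, r = 0.843 without 2 mice). The others, *Per2* with *Per3* (r = 0.76), *Per2* with *Cry2* (r = 0.732), *Per3* with *Cry2* (r = 0.716), *Per2* with *Nr1d1* (r = 0.664) and *Per1* with *Cry2* (r = 0.66), had permutation p-values adjusted to between 0.0135 and 0.0388 for r. Their rho lay between 0.494 and 0.644, with adjusted p from 0.123 to 0.19, and without 2 mice r fell to between 0.43 and 0.584. Counts of passing pairs fell to 1 without heterozygous replicate 6 or 7 and were 11 without wildtype replicate 4. Since *Dbp* forms separate groups of mice by cage, no value of r over all mice is given for it.

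Markers of endothelium were highest in the mice that were highest in *Nr1d1*. The summed level of *Pecam1*, *Cdh5*, *Kdr* and *Tek* was 428 CPM in heterozygous replicate 7, 379 in replicate 6 and 274 in replicate 5, the 3 mice highest in *Nr1d1*, and 114 to 226 CPM in the other 13 mice. By cage it ran from 163 to 379 CPM in cage 675, 126 to 150 in cage 676, 165 to 274 in cage 677 and 114 to 428 in cage 678, with none of the 4 markers at 0 in all mice. As a description over the 16 mice, within cages this sum had r from 0.78 to 0.886 with *Per1*, *Per2*, *Per3*, *Cry2* and *Nr1d1*, 0.615 with *Arntl*, 0.465 with *Ciart*, 0.454 with *Npas2*, 0.179 with *Dbp* and -0.49 with *Nr1d2*. With all mice 0 of the 4 markers passed for cage or weight. Without heterozygous replicate 3, 2 passed the joint cage test, 3 were called lower in cage 678 than in 675 and 3 lower in heavier mice. Of all genes, 6.08%, 13.6% and 13.7% did so in that fit. With the endothelial sum removed as well as the cage means, r was 0.616 for *Cry2* with *Nr1d1*, 0.608 for *Per1* with *Cry2*, 0.648 for *Per1* with *Nr1d1*, 0.825 for *Per2* with *Per3*, 0.229 for *Per1* with *Per2* and 0.0966 for *Per2* with *Nr1d1*. With body weight removed instead, the 6 values lay between 0.662 and 0.926. In bulk muscle more cells of a type and more RNA per cell cannot be told apart, and the part of endothelium in these correlations was not tested further. The 6 slow fibre markers summed to 150 CPM in heterozygous replicate 6, 97.5 in wildtype replicate 4, 72.2 in heterozygous replicate 7 and 31.2 to 54.9 CPM in the other 13 mice, and their part was not tested. With all mice 0 of the 7 muscle fibre and 0 of the 6 slow fibre markers passed the cage, 678 against 675 or weight tests in edgeR. When heterozygous replicate 3 was left out, 3 muscle fibre markers passed the joint cage test, 3 were called lower and 1 higher in cage 678 than in 675, and 3 were called lower and 1 higher in heavier mice, while 2 slow fibre markers passed the joint test, 2 were lower in cage 678 and 2 lower in heavier mice. In the fit without that mouse 6.08% of all genes passed the joint test. In cage 678, 13.6% were called lower and 11.2% higher, and 22.1% were called for weight, 13.7% lower in heavier mice. The B cell marker *Cd79a*, at 0.0468 to 0.974 CPM, was called higher in cage 678 than in 675 with all mice (log2 fold change 3.01, adjusted p = 0.0394 in edgeR), a call lost in 11 fits that left out 1 mouse and kept in 3, and was called in that pair and in the joint test without that mouse. Of the adipocyte, macrophage, tendon and fibroblast, nerve and erythrocyte markers, 0 passed for cage in either fit, and 1 erythrocyte marker was higher in heavier mice without that mouse.

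Of 17 other clock pathway genes tested, 0 passed the genotype, joint cage or weight tests, and 8 had an unadjusted p under 0.05 for weight, against 17.1% of all genes tested. Without heterozygous replicate 3, 1 passed the joint cage test, 3 were called lower in cage 678 than in 675 and 0 higher, and 6 were called lower in heavier mice. In that fit 6.08% of all genes passed the joint cage test, 13.6% were called lower in cage 678, 11.2% higher and 13.7% lower in heavier mice. The lowest p-value in the joint cage test belonged to *Nfil3*, which encodes a repressor that competes with DBP for D-boxes (p = 4.02e-05, adjusted p = 0.0779 in edgeR). *Nfil3* had 34.2 to 49.7 CPM in cage 676, 23.8 to 36.6 in cage 675, 19 to 29 in cage 677 and 13.2 to 27.4 in cage 678, and was lower in cage 678 than in 676 (log2 fold change -1.65, standard error 0.24, adjusted p = 0.0241 in edgeR). This pair was fitted with all mice only. *Noct*, a clock output gene (p = 0.0195), the repressor *Cry1* (p = 0.057) and *Bhlhe41* (p = 0.103) followed, with adjusted p from 0.656 to 0.663. *Tef*, a relative of *Dbp*, had 458 to 562 CPM in cage 678 and 404 to 489 CPM in the other cages.

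Genes that respond to glucocorticoids and fasting were examined because these cues can reset the clock. Of 15 tested, *Cdkn1a*, a cell cycle inhibitor, passed the joint cage test (adjusted p = 0.0491 in edgeR), and *Cdkn1a* (log2 fold change -1.70, adjusted p = 0.0078) and *Ddit4*, an mTORC1 inhibitor (-2.27, adjusted p = 0.0278), were lower in cage 678 than in 675. The joint call of *Cdkn1a* was lost in 12 of the 16 fits that left out 1 mouse (adjusted p up to 0.263), with scaling by library size only, with at least 10 counts in every mouse and with limma-voom, while its call between cages 678 and 675 stood in all 16 such fits. That of *Ddit4* was lost in 8 of them (adjusted p up to 0.115), and also with no other covariate and with limma-voom (adjusted p up to 0.076). *Cdkn1a* had 25.8 to 41.7 CPM in cage 675, 21.9 to 30.1 in cage 676, 13.9 to 19.3 in cage 677 and 8.7 to 17.9 in cage 678, and it was highest where *Dbp* was lowest. *Ddit4* had 11.2 to 57.4 CPM in cage 675 and 5.87 to 10.9 in cage 678. *Cebpd* (p = 0.00679) and *Foxo1* (p = 0.0166) followed in the joint test, each with an adjusted p of 0.656. Of 12 immediate early genes, which mark recent stimulation, and of 8 temperature responsive genes, 0 passed with all mice. An unadjusted p under 0.05 in the joint cage test was found for 6 of the 12 and 2 of the 8, against 7.36% of all genes tested. Among the immediate early genes the smallest p-values were those of *Nr4a1* (p = 0.00222, adjusted p = 0.546), *Btg2* (p = 0.00903, adjusted p = 0.656), *Atf3* (p = 0.0162) and *Dusp1* (p = 0.0276). Among the temperature responsive genes they were those of *Hspb1* (p = 0.00849), *Hspa1a* (p = 0.0236), *Hsph1* (p = 0.182) and *Cirbp* (p = 0.187). Without heterozygous replicate 3 the joint cage test called 3 of the 15 glucocorticoid and fasting genes, 2 of the 12 immediate early genes and 0 of the 8 temperature genes, against 6.08% of all genes. In cage 678 against 675 that fit called 6, 2 and 1 of them lower, against 13.6% of all genes, and 0, 0 and 1 higher, and in heavier mice it called 5, 2 and 1 lower and 0 higher, against 13.7% lower.

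The genes most like *Arntl* and *Dbp* over the 16 mice, by Pearson r of log2 CPM, are given as a description. For *Arntl* the highest values included *Dusp8* (0.892), *Ncoa5* (0.881), *Galnt18* (0.852) and *Myod1* (0.827), and the lowest were *Cd247* (-0.88), *Traip* (-0.88), *Tbc1d10c* (-0.87), *Cox4i2* (-0.85) and *Tspan4* (-0.84). Within cages these 9 kept absolute values of at least 0.792. For *Dbp* the highest were *Gstt2*, *Tef*, *Vsir*, *Ip6k1* and *Pde9a* and the lowest *Ell2*, *Cdkn1a*, *Ppp1r3c*, *Tiparp* and *Fam107a*, ranked on all mice although these differ by cage, so that their r is not given. Within cages r with *Dbp* was 0.586 for *Tef*, 0.573 for *Pde9a*, 0.564 for *Vsir*, 0.512 for *Ip6k1* and 0.237 for *Gstt2*. On the other side it was -0.591 for *Ell2*, -0.02 for *Cdkn1a*, -0.00179 for *Fam107a*, 0.08 for *Ppp1r3c* and 0.221 for *Tiparp*.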

How the data were processed

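Skeletal muscle RNA of 16 mice was sequenced as 52-base paired ends. The submitters' processing notes name STAR 2.7.2b and featureCounts 1.6.4 on GRCm38, and the study's methods name the GENCODE M24 gene model with both fragment ends aligned. The authors deposited raw fragment counts per gene, with a gene length that was used only for levels per kilobase. The methods name a TruSeq Stranded kit and the labels a Tecan kit. Gene symbols came from the reference tables for 55144 of 55471 identifiers.

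Genes were filtered with filterByExpr, scaled by TMM and tested in R 4.3.3 with edgeR 4.0.16 (glmQLFit, robust = TRUE, legacy = TRUE; glmQLFTest) on genotype label, cage and body weight, with Benjamini-Hochberg adjustment over 14331 genes and a threshold of 0.05. Alternatives used DESeq2 1.42.0 and limma 3.58.1. Log2 CPM used a prior count of 2. The libraries held 15273472 to 59682677 counts, and standard errors, SDs and p-values cover the variation between mice as well as counting error. The tests were checked on simulated counts whose spread followed edgeR's trend over expression level. The spread of the clock genes was at a median of 1.25 times that trend, so the check was easier than their data. The members and lists were chosen with earlier results of these data known. Named were all members, the 4 genes of each other list with the smallest p in the joint cage test and any past the threshold, the 5 genes most and 5 least like *Arntl* and *Dbp*, and genes overlapping a member; 1 gene like *Arntl* and 1 cell type marker are not reported here. The replicate numbers of both labels belong to separate animals. Deviations of mice with the same number correlated at 0.0328 or more (mean 0.0779 over 6 pairs), too little to pair them. Of the columns of single samples, 0 were left out. All 37 mitochondrial genes had a summed count of 0. No 2 libraries agreed within sampling noise.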

Additional observations from a re-analysis of the deposited data

Results flagged for a closer look

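Of 50 groups of mice examined for a single value far from the rest (10 genes, both genotype labels and the cages of 4 or 5 mice), 3 had one by Dixon's criterion, where chance alone gives about 1 in 20. *Arntl* in wildtype replicate 1 was low, with 16.5 CPM against 21.4 in the next wildtype mouse. *Per2* in wildtype replicate 5 was high, with 8.38 CPM against 5.9. *Nr1d2* in heterozygous replicate 6 was low, with 139 CPM against 186 in the next of the 10 mice, and this mouse was also the highest of all in *Per1*. What lies behind these values was not tested.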

How the results depend on the processing

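For the genotype label, edgeR called 0 genes, and 2 with a replicate block replacing cage, 8 with no filter on low counts, 6 with DESeq2 and 1 without heterozygous replicate 5 and wildtype replicate 3 together. Leaving out single mice gave 0 to 3 (3 without wildtype replicate 3). No clock gene was among them in any setting, the replicate block included. For the joint cage test the 4 genes became 0 with scaling by library size only, 23 with no filter, 1 with at least 10 counts in every mouse, 1 with limma-voom, 78 with DESeq2, 0 without those 2 libraries and 0 to 869 without single mice. Clock genes called were 1 (*Dbp*) with no other covariate, 1 without body weight, 1 with no filter, 1 with DESeq2, and 0 to 2 without single mice. For cage 678 against 675 the 13 genes became 4 with no other covariate, 8 without body weight, 8 with limma-voom, 113 with DESeq2 (3 of them clock genes), 5 without the 2 libraries (0 clock genes) and 4 to 3553 without single mice (0 to 5 clock genes). Body weight called 0 to 3158 genes and 0 to 4 clock genes without single mice. The highest values, 869, 3553 and 3158, all came without heterozygous replicate 3, and the cause was not tested. Pairs of clock genes that passed over all mice were 12 with scaling by library size only, 1 by Spearman's rho and 1 to 11 without single mice. Within cages they were 4 to 13 without single mice.

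Estimates near 0 changed sign. Cage 678 minus 675, *Per2* turned from 0.00367 to -0.0391 with library size only, -0.00995 with no filter, -0.00526 with limma-voom and -0.0244 without the 2 libraries, and ran from -0.281 to 0.224 without single mice. *Cry2* was 0.352 with no other covariate and 0.301 without body weight, and *Nr1d1* 0.595 and 0.526. Without single mice they ran from -0.708 to 0.247 and from -1.05 to 0.0844. The edgeR 4 method, the 2 libraries left out together, and the removal of endothelial markers or body weight from the pairs were chosen after seeing the data. The hour of collection was not given, and depth limits *Npas2*, with as few as 6 counts, most.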
